A study of Rattus norvegicus with 23 samples.

Results

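Hearts of newborn rats exposed to maternal diabetes alone were compared with hearts of unexposed newborns on the same control diet. The members were chosen by their exposure label and by no measured value: 6 diabetes hearts and 7 control hearts, 13 of the 23 hearts in the series, with all 29170 probe sets of the array. The dams of both groups were Sprague Dawley rats fed a control diet for 28 days or more ahead of mating and then until delivery. On gestational day 14 the dams of the diabetes group received streptozotocin, a drug that kills insulin-producing beta cells, at 65 mg/kg, and the control dams received 0.09 M citrate buffer. Insulin was given daily to keep the glucose of the diabetic dams between 200 and 400 mg/dl, so the model is hyperglycemia of late gestation that was treated in part. The pups were delivered on gestational day 22, and RNA of the whole heart was taken on postnatal day 1. By the study's methods each group held hearts of both sexes. No label gives the sex of a heart, so the balance of sexes between the groups is not known. The other 10 hearts came from pups of dams on a high-fat (HF) diet, 5 with diabetes as well (combination) and 5 without, and they are used here only beside the diabetes values.

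Glucose crosses the placenta and maternal insulin does not, so a fetus of a hyperglycemic dam makes more insulin of its own. Infants of diabetic mothers are known for thickened heart muscle, for an excess of red blood cells and for delayed use of fat as a fuel by heart muscle, which relies on glucose before birth and turns to fatty acids after it. The comparison asks what the diabetic pregnancy by itself left in the transcriptome of the newborn heart.

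Every value is a log2 intensity relative to the median of its probe set over the 23 arrays, so 0 is the middle heart of the series and a value says nothing about how strongly a gene is expressed. For the same reason, levels cannot be compared between genes, signal over background cannot be read, and the presence of heart markers could not be checked, only their evenness between hearts. The mean of 10 cardiomyocyte markers lay between -0.09 and 0.10 in every heart. Fewer cells of a type and less RNA per cell cannot be told apart in RNA of a whole heart. No label names the dam of a heart, so the p-values reflect the variation between single hearts only. In the exact permutation test and the methods' t-test these are the 13 hearts, while limma takes its spread from all 23.

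Single hearts of both groups stood apart in genes that mark neighbouring tissue or a chamber of the heart. Control heart 1 was high in 16 thymus and T cell genes, with a list mean of 3.20 against -0.07 to 0.05 in the other control hearts. In it Cd3g, a signaling chain of the T cell receptor complex, stood at 5.73 and the recombinase Rag1 at 4.67. The same heart was high in lung genes, with a list mean of 2.38, the surfactant protein Sftpc at 5.93 and the airway secretoglobin Scgb1a1 at 6.26. Scgb1a1 was also at 3.92 in diabetes heart 3 and at 1.44 in diabetes heart 6, and between -0.54 and 0.07 in the other 10 hearts. Diabetes heart 5 was low in atrial genes, with a list mean of -1.37 and with Sln, the atrial regulator of the calcium pump, at -3.82 and Bmp10 at -3.67. Ucp1, the brown fat uncoupling protein, was above 1.9 in control hearts 1, 2 and 3 and in diabetes hearts 1, 5 and 6, so that it did not follow the groups. Ttr, the thyroid hormone carrier of liver and choroid plexus, stood at 5.47 in control heart 5, and the mean of 22 immediate early genes at 1.07 in control heart 6. What these hearts contributed to each difference was not tested beyond the values given with and without them.

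**Figure D1:**
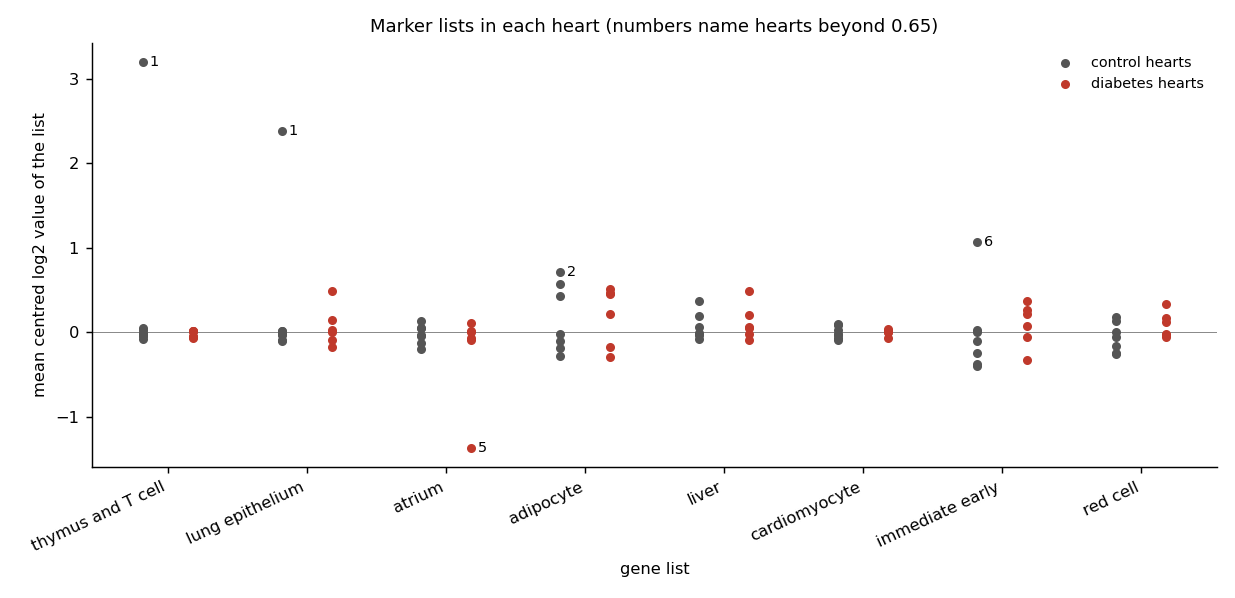
Mean centred log2 value of 8 gene lists (x axis) in each of 7 control hearts (grey) and 6 diabetes hearts (red). Each point is 1 heart and numbers name the hearts beyond 0.65. Control heart 1 stands at 3.20 for thymus and T cell genes and at 2.38 for lung genes, and diabetes heart 5 at -1.37 for atrial genes, while cardiomyocyte genes lie between -0.09 and 0.10.

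At the threshold of the study's methods, a log2 difference larger than 0.32, up or down, with an unadjusted p under 0.05, limma found 89 probe sets that differed, or 0.305% of all. Of these, 26 probe sets name a single gene, which is 0.179% of 14506 named genes. The 19 that were higher in diabetes hearts made up 0.131% and the 7 that were lower 0.0483%. Another 4 could be named through probe identifiers listed by the study (Kel, Vangl1, Itga8 and RGD1560775), so 30 named genes are described here. After Benjamini-Hochberg adjustment limma left 0 probe sets, with 469 at an unadjusted p under 0.05. The exact permutation test and the methods' t-test also left 0 after adjustment, with 580 and 517 before it. Each of these counts before adjustment is a smaller share of the 29170 probe sets than the 0.05 that chance alone would give on average. The adjusted p was 1 for each of the 30 genes, and "rose" and "fell" are used here for the unadjusted threshold alone. Without control heart 1 and diabetes heart 5 together the count was 196, and 15 of the 30 genes still passed.

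The largest differences among the named genes past the threshold were in red blood cell genes. Ahsp, Hbe1, Slc4a1, Car1 and Kel rose, by 1.48-fold to 2.0-fold, and no gene of the red cell list fell. Of 64 listed red cell genes measured, 4 rose (Kel is not among the 64), against a background of 0.131% of named genes, and 48 of 64 differences were above 0 against 7038 of 14506 over all named genes. The median difference of the list was 0.07, or 0.03 without diabetes heart 4, and that of all named genes 0.00. The 7 genes of hemoglobin and its chaperone were all above 0, with a median of 0.40 and a range of 0.23 to 1.00. The gene lists were drawn up with earlier results of these data known, so counts of members that passed describe a list and do not test it.

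Ahsp encodes the chaperone that holds free alpha globin chains. In control hearts its lowest, median and highest values were -1.65, -0.58 and 0.50, and in diabetes hearts 0.00, 0.28 and 1.19. All 6 diabetes hearts lay above the control median and 2 above every control heart, so the groups overlapped. The difference was 1.00 ± 0.41 (log2, SE), a 2.0-fold change, with p = 0.0326 in the exact permutation test over the 13 hearts. Ahsp passed in 9 of 13 refits that left out 1 heart, with differences of 0.81 to 1.17, and did not pass without control heart 2 or 4 or without diabetes heart 4 or 6.

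Hbe1 encodes the epsilon globin chain of embryonic hemoglobin. Its values were -1.28, -0.39 and 0.11 (lowest, median, highest) in control hearts and -0.46, 0.32 and 1.70 in diabetes hearts. Of the 6 diabetes hearts, 3 were above every control heart and 1 was below the control median. The difference was 0.83 ± 0.38, or 1.78-fold, with an exact permutation p of 0.0402. It passed in 5 of 13 refits, between 0.58 and 1.01, and was lost without control heart 1, 2, 4, 5 or 7 or diabetes heart 3, 4 or 6. The other beta-type chains Hbb, Hbb-b1, Hbe2 and Hbg1 had differences of 0.23, 0.23, 0.25 and 0.47, none past the threshold, and near-identical globin genes may share probes.

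The stretch of the rat genome upstream of Hbe1 is shown because its regulators belong to the same list. In the RefSeq table of build GRCr8 it lies on the minus strand at chr1:167696281-167696530, the 250 bases before the gene's start, and capitals mark the letters of a GATA motif (AGATAA or TGATAA on either strand).
Hbe1: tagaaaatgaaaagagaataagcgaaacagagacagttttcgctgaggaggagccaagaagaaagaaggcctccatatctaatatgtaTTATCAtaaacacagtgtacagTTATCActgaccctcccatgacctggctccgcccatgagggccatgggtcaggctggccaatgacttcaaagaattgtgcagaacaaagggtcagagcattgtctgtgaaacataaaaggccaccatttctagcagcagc
It holds 2 matches. Of 33469 promoters of that length in the table, counted promoter by promoter, 16.9% hold a match. Counted by gene, with a match in any promoter of the gene, it is 14 of the 50 red cell genes that have an entry, or 28%. Among hemoglobin and its chaperone it is 1 of the 4 genes with an entry. Ahsp, Slc4a1 and Car1 have no entry, and the same stretch of Kel holds 0. Gata1 and Klf1, the transcription factors that drive the red cell program, had differences of 0.17 and 0.26 and did not pass.

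Slc4a1, the chloride and bicarbonate exchanger band 3 of the red cell membrane, ran from -1.15 through a median of -0.07 to 0.48 in control hearts and from -0.08 through 0.15 to 1.43 in diabetes hearts. Diabetes hearts were above the control median in 5 of 6, and the ranges overlapped. The difference of 0.68 ± 0.31 (1.61-fold) had an exact permutation p of 0.0862 and passed in 8 of 13 refits, at 0.48 to 0.81. It was lost without control heart 1, 2 or 4 or diabetes heart 4 or 6.

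Car1, the red cell carbonic anhydrase that hydrates carbon dioxide, had control values of -0.88, -0.20 and 0.49 and diabetes values of -0.12, 0.38 and 1.13. All 6 diabetes hearts exceeded the control median and 3 exceeded every control heart. It rose by 0.68 ± 0.27 (1.60-fold, exact permutation p = 0.0507) and passed in 10 of 13 refits, the exceptions being those without control heart 2 and diabetes hearts 4 and 6, with a range of 0.54 to 0.80.

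Kel, the Kell blood group antigen, had control values of -0.75, -0.26 and 0.48 and diabetes values of -0.08, 0.26 and 1.05, a difference of 0.56 ± 0.26 (1.48-fold, exact permutation p = 0.0513). The ranges overlapped, and it passed in 6 of 13 refits at 0.43 to 0.68. Those without control heart 1, 2, 4 or 7 or diabetes heart 4, 5 or 6 did not pass.

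Red cell genes that moved less included Alas2, the enzyme that starts heme synthesis in red cells, at 0.48 ± 0.30, the Rh proteins Rhd at 0.48 ± 0.31 and Rhag at 0.39 ± 0.25, and Tfrc, the transferrin receptor, at -0.02 ± 0.16. None of these passed. The mean of the 64 genes was -0.26, -0.05 and 0.19 (lowest, median, highest) in control hearts and -0.05, 0.05 and 0.33 in diabetes hearts, and diabetes heart 4 was the highest and control hearts 4 and 2 the lowest. The count of 4 became 0 when control heart 2, diabetes heart 4 or diabetes heart 6 was left out, 1 or 2 when control heart 4 or 1 was, and 6 when control heart 3 was. With the mean of the list as a covariate in the fit, the differences of Ahsp, Car1 and Slc4a1 were 0.43, 0.27 and 0.22 and 0 listed genes passed, which follows in part from the genes being in the covariate.

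**Figure D2:**
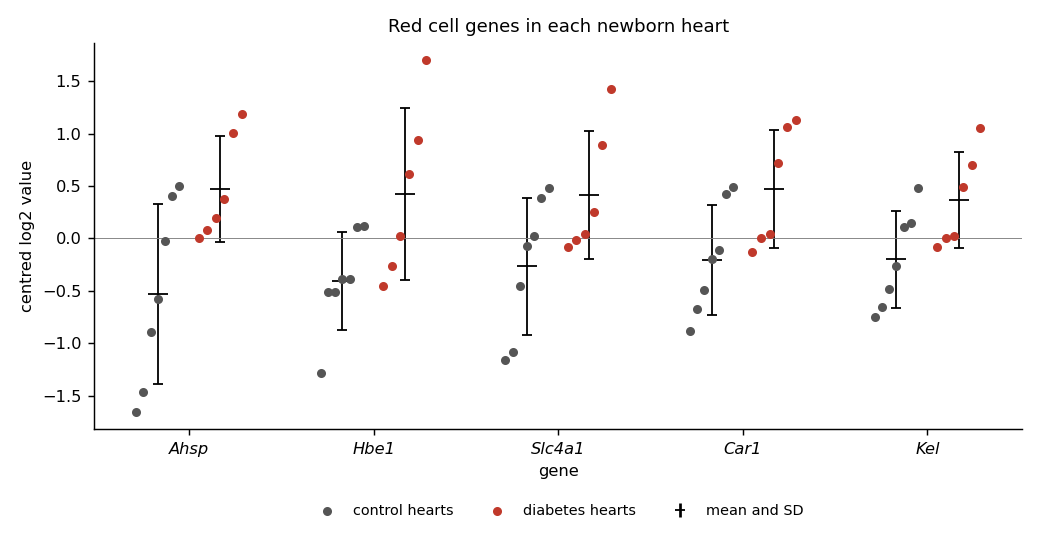
Centred log2 value (y axis) of 5 red cell genes in each of 7 control hearts (grey) and 6 diabetes hearts (red), with the group mean and SD as bars. Diabetes means are higher for all 5, and the points of the groups overlap for each gene, from Ahsp with a difference of 1.00 to Kel with 0.56.

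Single genes of the extracellular matrix and of smooth muscle also rose, namely Frzb, Fbln5, Eln, Acan, Itga8, Myh11 and Actg2, with folds of 1.27 to 1.48. Over all named genes 0.131% rose and 7038 of 14506 differences were above 0. Of 22 elastic fiber genes, 2 rose, 0 fell and 18 differences were above 0, with a median of 0.06 that was 0.04 without control heart 1. Of 22 genes of valve and cartilage matrix, 2 rose and 11 were above 0, with a median of 0.00, and of 21 collagen genes 0 passed, with a median of 0.02.

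Frzb, a secreted antagonist of Wnt ligands, had control values of -0.91, -0.32 and 0.29 and diabetes values of -0.23, 0.24 and 0.57. All 6 diabetes hearts were above the control median, and 1 was above every control heart. It rose by 0.56 ± 0.19 (1.48-fold, exact permutation p = 0.0169) and passed in all 13 refits, at 0.47 to 0.67. Of 12 Wnt antagonists measured, Frzb alone passed, 9 were above 0 and the median was 0.07.

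Fbln5 encodes fibulin-5, which guides elastin onto microfibrils. Its control values were -1.06, -0.24 and 0.18 and its diabetes values -0.32, 0.18 and 0.44, a rise of 0.54 ± 0.20 (1.46-fold, exact permutation p = 0.0262). The groups overlapped, with 3 diabetes hearts above every control heart, and the call passed in all 13 refits, at 0.44 to 0.64.

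Eln encodes elastin, the core protein of the elastic fiber. Control values were -1.11, -0.22 and 0.09 and diabetes values -0.37, 0.14 and 0.43, and control heart 5 was the lowest of all. The rise of 0.41 ± 0.20 (1.33-fold, exact permutation p = 0.0589) passed in 4 of 13 refits and was 0.27 without control heart 5. It was also lost without control heart 3, 4 or 7 and without diabetes heart 1, 2, 3, 5 or 6, and the highest value was 0.51, without diabetes heart 4.

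Acan, the core protein of the cartilage proteoglycan aggrecan, which is also made in heart valves, rose by 0.37 ± 0.16 (1.29-fold, exact permutation p = 0.0303). Its control values were -0.85, -0.17 and 0.15 and its diabetes values -0.12, 0.12 and 0.57, so that 2 diabetes hearts stood above the control range. It passed in 10 of 13 refits and was lost without control heart 5 and without diabetes heart 2 or 3, at 0.26 to 0.43 over the refits. Itga8, an integrin chain that binds matrix proteins in smooth muscle and mesenchyme, rose by 0.36 ± 0.15 (1.29-fold, exact permutation p = 0.0408), from control values of -0.74, -0.16 and 0.36 to diabetes values of -0.02, 0.13 and 0.51. All 6 diabetes hearts were above the control median, and the call was lost without control heart 5 or diabetes heart 3 or 6, within a range of 0.27 to 0.45.

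Myh11, the smooth muscle myosin heavy chain, and Actg2, the smooth muscle gamma actin, are contractile genes of vessel walls and visceral muscle. Myh11 had control values of -0.85, -0.13 and 0.16 and diabetes values of -0.21, 0.06 and 0.57, a rise of 0.35 ± 0.15 (exact permutation p = 0.0746) that was lost without control heart 1, 3 or 5 or diabetes heart 3 or 5, at 0.24 to 0.42. Actg2 had control values of -0.77, -0.24 and 0.20 and diabetes values of -0.29, 0.30 and 1.37, a rise of 0.55 ± 0.26 (exact permutation p = 0.0472) that was lost without control heart 1, 3, 4 or 5 or diabetes heart 3, 5 or 6, at 0.34 to 0.68. Both ranges overlapped, and Myh11 was the 1 gene of 12 smooth muscle and pericyte markers to pass, 7 of which were above 0, with a median of 0.03.

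**Figure D3:**
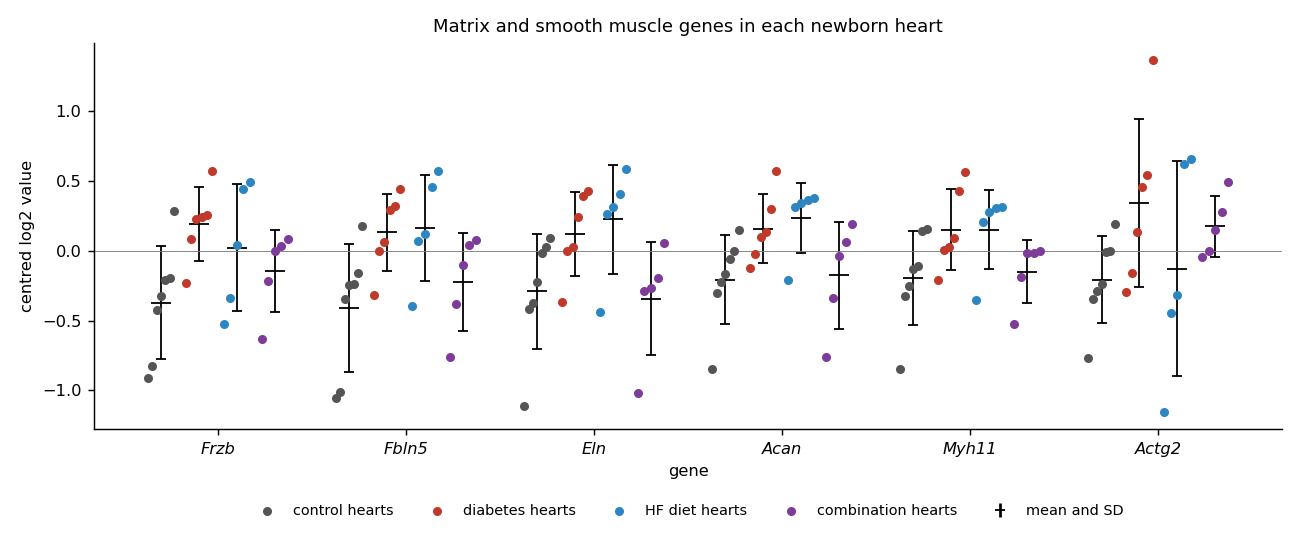
Centred log2 value (y axis) of 6 matrix and smooth muscle genes in each heart of the 4 groups, with the group mean and SD as bars. Diabetes hearts (red) lie higher than control hearts (grey) on average, by 0.56 for Frzb and 0.41 for Eln, whereas combination hearts (purple) lie lower on average than HF diet hearts (blue) for all but Actg2, with differences of -0.17 for Frzb and -0.57 for Eln and 0.30 for Actg2.

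Or2aj4, an odorant receptor gene, was the only one of the 30 genes whose groups did not overlap: control values were -0.65, -0.31 and 0.03 and diabetes values 0.03, 0.15 and 0.28, a gap of under 0.01 between the nearest hearts. It rose by 0.45 ± 0.10 (1.36-fold, exact permutation p = 0.00117) and passed in all 13 refits. Over all probe sets, 0.024% showed no overlap, and below the fold threshold Thoc1, Rnf182 and Klra22 had none either, at 0.17, -0.15 and -0.17, with another probe set of Klra22 at 0.05. Or4c52, Or5ac25 and Olr951, further odorant receptors, rose by 0.39, 0.37 and 0.32. Or4c52 passed in all 13 refits, Or5ac25 in 12, with 0.28 to 0.42 and no call without control heart 1, and Olr951 in 6, with 0.28 to 0.40 and no call without control heart 1, 3, 4 or 6 or diabetes heart 1, 5 or 6. Of 1240 olfactory and vomeronasal receptor genes measured, 4 rose and 706 were above 0, with a median of 0.02. The background over all named genes was 0.131% that rose and 7038 of 14506 above 0.

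Ntrk3, the neurotrophin-3 receptor, had control values of -0.74, -0.17 and 0.36 and diabetes values of -0.02, 0.17 and 0.35, and rose by 0.34 ± 0.14 (1.26-fold, exact permutation p = 0.0344). The diabetes hearts lay inside the control range but all above its median, and the call was lost without control heart 4 or 5 or diabetes heart 2 or 3, within refits of 0.24 to 0.42. Lrrtm3, a synaptic adhesion protein, rose by 0.35 ± 0.11 (exact permutation p = 0.0181), with 3 diabetes hearts above every control heart, and was lost without control heart 1 or 4 or diabetes heart 3 or 5, within refits of 0.27 to 0.40. Of 12 genes of neurotrophin receptors and synapse these 2 rose, 6 differences were above 0 and 6 below, and the median was 0.00. Over all named genes 0.131% rose. That list too was drawn up with earlier results of these data known, so its 2 calls are no test of it. Vangl1, a membrane protein of planar cell polarity, had control values of -0.38, -0.28 and 0.49 and diabetes values of -0.01, 0.36 and 0.92 and rose by 0.42 ± 0.18 (exact permutation p = 0.0548), except without control heart 5 or 6 or diabetes heart 6, within refits of 0.31 to 0.52. Of 14 measured genes of planar cell polarity 0 passed, with 7 above 0 and a median of 0.00 (Vangl1, named through the study's identifiers, is not among them).

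Polr3k, a subunit of RNA polymerase III, rose by 0.36 ± 0.13 (1.28-fold, exact permutation p = 0.0035), from control values of -0.45, -0.18 and 0.07 to diabetes values of -0.07, 0.27 and 0.34. In it 4 of 6 diabetes hearts were above every control heart, and 12 of 13 refits passed, at 0.31 to 0.41, all but that without control heart 7. The other 7 polymerase III genes measured did not pass, and the median of the 8 was -0.02. Slc7a3, a transporter of cationic amino acids, had control values of -0.56, -0.28 and 0.03 and diabetes values of -0.22, 0.08 and 0.41. It rose by 0.34 ± 0.12 (exact permutation p = 0.0175), with 4 diabetes hearts above every control heart, and was lost without control heart 4 or 5 or diabetes heart 3 or 5, within refits of 0.28 to 0.41. Ccdc92, a coiled-coil protein, rose by 0.35 ± 0.15, and by 0.21 with no call without diabetes heart 5.

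Several of the genes that fell are known from immune cells, and control heart 1, the heart high in thymus genes, was the highest control heart for Cd4, Ifi44l and Stap1. Cd4, the co-receptor of helper T cells, had control values of -0.05, 0.28 and 2.16 and diabetes values of -0.30, 0.00 and 0.09. It fell by 0.53 ± 0.24 (1.44-fold lower, exact permutation p = 0.0437), and the difference was -0.25 and did not pass without control heart 1. All 16 thymus and T cell genes were below 0, with a median of -0.50, and without control heart 1 the median was -0.01. Ifi44l, an interferon-induced gene, fell by 0.46 ± 0.19, with 3 diabetes hearts below every control heart, and was at -0.31 with no call without control heart 1. Of 22 interferon response genes 1 fell, 9 were above 0 and the median was -0.05. Stap1, a signaling adaptor of B cells, fell by 0.39 ± 0.18, and was at -0.21 with no call without that heart, and Tmem229b fell by 0.38 ± 0.18, and was at -0.23 with no call.

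Magi3, a scaffold protein of cell junctions, was the 1 named gene of the 7 that fell in all 13 refits. Its control values were -0.01, 0.19 and 0.36 and its diabetes values -0.65, -0.18 and 0.12. All 6 diabetes hearts were below the control median and 3 below every control heart, and it fell by 0.41 ± 0.13 (1.33-fold lower, exact permutation p = 0.0105), with a range of -0.48 to -0.33. Drd4, the dopamine D4 receptor, fell by 0.46 ± 0.21 (exact permutation p = 0.0402) from a control range whose highest heart, control heart 7 at 1.14, stood apart, and the difference was -0.32 without that heart and did not pass. Btn3a2, a butyrophilin of the immunoglobulin superfamily, fell by 0.41 ± 0.15 (exact permutation p = 0.021), and was -0.25 with no call without diabetes heart 6, and its other probe set differed by -0.06. RGD1560775 fell by 0.36 ± 0.13 (exact permutation p = 0.00758), except without control heart 2 or 5, within refits of -0.41 to -0.30.

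Just inside the threshold lay Olr951 at 0.32, and just outside it Or4c127 at 0.31 and Inka2, an inhibitor of the kinase PAK4, at -0.31. Their values are printed to show where the fold limit of 0.32 on the log2 scale cut the order.

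None of 44 fatty acid oxidation genes passed, and 38 differences were below 0, with a median of -0.06. All 17 enzymes of beta oxidation and all 5 genes of the carnitine shuttle, which carries fatty acids into mitochondria, were below 0, with medians of -0.08 and -0.10. The control heart means of beta oxidation ran from -0.56 to 0.34 and held the diabetes range of -0.34 to 0.15. Lpl, which frees fatty acids from circulating lipoproteins, differed by -0.17 ± 0.08, Cpt1a and Cpt1b, the liver and muscle forms of the entry enzyme, by -0.13 ± 0.21 and -0.05 ± 0.10, and Pdk4, which shuts pyruvate out of the citric acid cycle, by 0.14 ± 0.30. Without each heart in turn the list median stayed between -0.13 and -0.03.

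In the opposite sense, 26 of 29 glycolysis genes were above 0 and 0 passed, with a median of 0.09 that was 0.04 without diabetes heart 5. The mean of the list had a median of -0.01 and a highest value of 0.40 over the diabetes hearts, and a median of -0.03 over the control hearts. The largest were Pfkfb3, the enzyme that makes the main activator of glycolysis, at 0.50 ± 0.34 and hexokinase Hk2 at 0.46 ± 0.43, and the ranges of both overlapped widely. Their lowest differences on leaving out 1 heart were 0.20 (Pfkfb3, without diabetes heart 6) and 0.23 (Hk2, without diabetes heart 5). Pfkfb3 had control values of -0.30, -0.02 and 0.74 and diabetes values of -0.06, 0.37 and 2.12. Hk2 was above 1.3 in control heart 6 and diabetes hearts 3 and 5 alone. Slc2a1 and Slc2a4, the basal and the insulin-responsive glucose transporter, differed by 0.06 ± 0.15 and 0.15 ± 0.18. Of 19 hypoxia response genes 18 were above 0, with a median of 0.07 that was 0.03 without diabetes heart 5. In branched-chain amino acid breakdown 16 of 17 were above 0, with a median of 0.08 that was 0.04 without diabetes heart 5. Of 4 ketone body genes 2 were above 0 and 2 below, with a median of 0.005. The highest of them, the enzyme gene Bdh1, differed by 0.58 ± 0.35, and by 0.25 without diabetes heart 5, which stood at 1.95 in it.

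**Figure D4:**
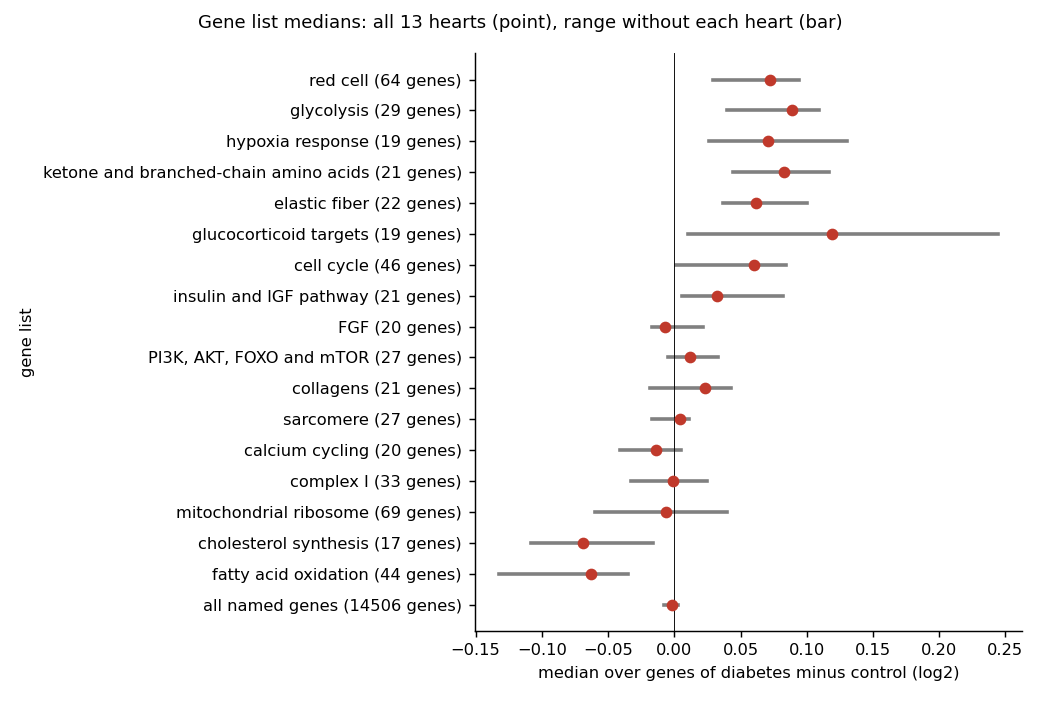
Median over the genes of each list of the diabetes minus control difference (x axis, log2) with all 13 hearts (points), and the range of that median when each heart was left out in turn (bars). Glucocorticoid targets lie furthest to the right, at 0.12. Red cell, glycolysis, hypoxia, ketone and branched-chain amino acid, elastic fiber and cell cycle lists lie at 0.06 to 0.09. Cholesterol synthesis and fatty acid oxidation lie to the left at -0.07 and -0.06, and all named genes at 0.00.

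Genes of the insulin and growth factor pathway were close to even. Of 21 insulin and IGF genes 12 were above 0, with a median of 0.03 and none past the threshold. Insr, the insulin receptor, had control values of -0.32, -0.07 and 0.44 and diabetes values of -0.24, 0.07 and 0.43, a difference of 0.10 ± 0.15, and its other probe set differed by 0.10. Igf1r differed by 0.07 ± 0.17, Irs1, the adaptor of both receptors, by 0.11 ± 0.12, and Igf2, the fetal growth factor, by 0.07 ± 0.11. Among 27 genes of the PI3K, AKT, FOXO and mTOR pathway 16 were above 0, with a median of 0.01, and Akt2 differed by -0.07 ± 0.07. Of 20 FGF genes 9 were above 0, with a median of -0.01, and Fgfr2 differed by 0.01 ± 0.13.

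Heart muscle itself showed no call in any of its lists. Of 27 sarcomere genes 14 were above 0, with a median of 0.00. Nppa and Nppb, the natriuretic peptides that rise with wall stress, differed by -0.02 ± 0.06 and 0.14 ± 0.14, and Myh6 and Myh7, the fast and slow myosin heavy chains, by -0.07 ± 0.09 and 0.03 ± 0.11. Of 20 calcium cycling genes 7 were above 0, with a median of -0.01, and the widest of them, Sln at -0.68 ± 0.42, was at -0.04 without diabetes heart 5. Ppargc1a, the coactivator of mitochondrial biogenesis, differed by 0.00 ± 0.11, and complex I (33 genes) and the mitochondrial ribosome (69 genes) had medians of 0.00 and -0.01. Of 46 cell cycle genes 32 were above 0, with a median of 0.06 that was 0.00 without diabetes heart 5.

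Of other lists, glucocorticoid targets had 15 of 19 genes above 0 and a median of 0.12, which ran from 0.01 without diabetes heart 6 to 0.24 without control heart 6, with 0 past the threshold. Agtr2, the fetal angiotensin receptor, just missed the p limit at 0.69 ± 0.33, with control values of -1.30, -0.34 and 0.52 and diabetes values of -0.14, 0.14 and 1.22. It had an exact permutation p of 0.0635, and it passed in 6 of 13 refits. Dio3, an imprinted gene whose enzyme inactivates thyroid hormone, differed by 0.19 ± 0.05, below the fold limit, with an exact permutation p of 0.00466 and all 6 diabetes hearts above the control median. Bnc1, an epicardial transcription factor, differed by -0.24 ± 0.09, also below the fold limit.

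The same exposure on HF diet, combination minus HF diet, comes from 10 other hearts and shares none with this comparison. The sample codes of those 10 hearts have only 6 different stems, whereas each of the 13 hearts has its own. The sources used here do not say what a stem stands for, so each value was also refitted with the hearts of a stem averaged, which leaves 3 values in each HF diet group. Of the 19 named genes that rose, 11 were above 0 there, against 7261 of 14506 over all named genes, and of the 7 that fell, 5 were below 0. Over all probe sets, named or not, it was 24 of the 65 higher ones (36.9%), against 47.1% of all 29170, and 13 of the 24 lower ones were below 0. Ahsp and Car1 were higher there too, by 1.22 and 0.73, both past the threshold that 3.35% of named genes passed upward, and both passed with stems averaged, at 1.35 and 0.87. Slc4a1 and Kel were at 0.39 and 0.50 and Hbe1 at -0.07, none of them past it. In combination hearts 1 and 2, which share a stem, Ahsp stood at 1.16 and 2.51, and in combination heart 3, alone in its stem, at 1.16. Combination hearts 4 and 5, which share another stem, were at -0.10 and -0.49, inside the HF diet range of -0.94 to 0.00. Of the 64 red cell genes 49 were above 0 and 10 passed upward, with a median of 0.13, and 5 passed with stems averaged.

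Of the 7 matrix and smooth muscle genes that rose on control diet, 6 were below 0 on HF diet. Eln differed by -0.57 and Acan by -0.42, both past the threshold that 2.08% of named genes passed downward, and Fbln5 by -0.39, Itga8 by -0.32, Myh11 by -0.30 and Frzb by -0.17 without passing, while Actg2 was at 0.30. Ntrk3 at -0.37 and Vangl1 at -0.95 also passed downward. With stems averaged, Vangl1 passed at -0.93, and Eln (-0.45), Acan (-0.31) and Ntrk3 (-0.33) did not. Combination heart 1 was the lowest of its group in Eln and Acan, at -1.02 and -0.76. The other combination hearts ran from -0.285 to 0.055 and from -0.334 to 0.194. The array of that heart had the lowest weight of the series, 0.313, and what it contributed was not tested. Of 21 collagen genes 0 were above 0 on HF diet, against 7261 of 14506 named genes. The difference between the diets was -0.98 for Eln, -0.93 for Fbln5 and -1.37 for Vangl1. In limma's interaction test 0 of 29170 probe sets reached an adjusted p of 0.05, and the adjusted p was 0.672 for Eln and Fbln5 and 0.572 for Vangl1, so none of these differences between the diets passed. With stems averaged 0 probe sets reached it either, and the adjusted p was 0.86 for all 3 genes.

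**Figure D5:**
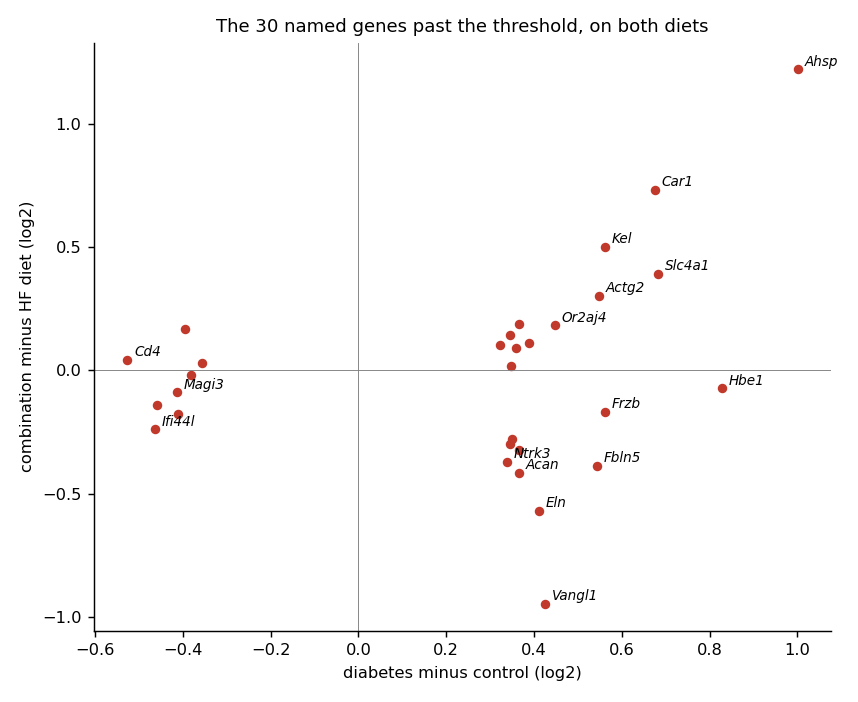
Difference by diabetes on control diet (x axis, log2, 13 hearts) against the difference on HF diet (y axis, log2, 10 other hearts) for the 30 named genes past the threshold on the x axis. Ahsp and Car1 lie high on both axes at 1.00 and 1.22 and at 0.68 and 0.73, while Eln, Fbln5, Acan and Vangl1 are above 0 on the x axis and below 0 on the y axis.

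Among the 59 unnamed probe sets that passed, 39 belonged to a block of 1574 probe sets whose identifiers lie below that of the earliest annotated probe set and which have no gene in the annotation. In that block 2.48% passed, 33 probe sets higher (2.1%) and 6 lower (0.381%), against 0.181% of the other 27596. The mean of the block in single hearts ran from -0.35 to 0.17 in control hearts and from -0.26 to 0.32 in diabetes hearts, and 10 of the 39 passed in all 13 refits. No source used here says what these probe sets measure.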

How the data were processed

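RNA of each whole newborn heart was hybridized to an Affymetrix Rat Gene 1.0 ST array, 1 array per heart. The authors normalized the intensities in GeneSpring GX and deposited log2 values, each probe set centred on its median over the 23 arrays; no source used here gives the summarization method or the genome build, and depth has no meaning for arrays, whose number limits the precision. All 29170 row medians were 0.

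The 13 hearts were grouped by their exposure label. With limma 3.58.1 in R 4.3.3 (lmFit, eBayes), 1 mean for each of the 4 groups was estimated from the 23 arrays, and a probe set was called at a fold change beyond 1.25 and an unadjusted p under 0.05, with Benjamini-Hochberg adjustment over all probe sets. The exact permutation test was two-sided over 1716 splits of the 13 hearts, and its smallest p is 0.000583. The fit was tested on simulated data. Of the probe sets, 15310 have 1 gene symbol in the platform annotation, 323 several and 13537 none, and a gene with several is represented in lists by the lowest identifier. Identifiers from the study's tables gave 214 further names, 4 of them among the calls, with none of the values there used. Named genes were the 15 higher and 10 lower calls of smallest p, calls without overlap, up to 6 calls and at least 2 members per list, preset genes, the 10 of widest spread, the 5 calls with the largest interaction and those nearest the fold threshold; the calls left over after this rule are also named. Genes, lists and tests were chosen with earlier results of these data known. Alternatives were other tests, normalizations, filters, covariates and weights, a replicate block, leaving out hearts and, for the HF diet contrasts (chosen after seeing the data), averaging hearts whose sample codes share a stem. Promoters came from a RefSeq table (GRCr8). Tables and figures were made in Python 3.11.15.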

Additional observations from a re-analysis of the deposited data

Results flagged for a closer look

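Among 94 groups checked for a heart far from the others, chance alone would set apart about 1 in 20. In control hearts, the gap of the farthest heart to its neighbour, as a share of the group's range, was 0.963 for the thymus and T cell list and 0.952 for the lung list (control heart 1, at 3.20 and 2.38). That heart was also the farthest for Cd4 (0.741), Ifi44l (0.723) and Stap1 (0.593), at 2.16, 1.09 and 1.45, and what it contributed was read only by leaving it out. Control heart 5 stood apart low for Eln, at -1.11 (0.578), control heart 7 high for Drd4, at 1.14 (0.576), and control heart 3 high for the epicardium list, at 0.67 (0.704). In diabetes hearts, heart 5 stood apart low for the atrium list, at -1.37 (0.86), low for the cardiomyocyte list, at -0.07 (0.661), and high for Ccdc92, at 0.95 (0.679).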

How the results depend on the processing

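The count of 89 probe sets (65 higher, 24 lower) was 51 by the methods' t-test (40 and 11), 58 by the exact permutation test (42 and 16), 27 over probe sets with 1 gene symbol, 25 at a fold change beyond 1.5, 469 with no fold threshold and 0 after Benjamini-Hochberg adjustment by limma. It was 458 with the red cell list mean as a covariate (400 and 58), 52 without identifiers below the first annotated one and 196 without control heart 1 and diabetes heart 5 together (157 and 39), the last pair of settings chosen after seeing the data. The other settings gave 88 to 114, and leaving out 1 heart gave 68 to 140, the latter without diabetes heart 5, with 137 and 136 without control heart 6 and diabetes heart 4. The 4 red cell genes that rose were 2 without control heart 1 and diabetes heart 5, 0 with the covariate and 0 to 6 on leaving out 1 heart. None of the 30 named genes changed sign in any setting. They were picked for a large difference in these same hearts, so this outcome says little about its direction. The fewest still called were 12, with array weights, and 14, with lung and thymus covariates, and all 30 were called with array centring, a robust prior, the low-variation filter and identical probe sets left out. With the replicate block 110 probe sets passed (71 and 39), 19 of the 30 genes and 2 red cell genes among them; same-numbered hearts correlated at -0.287 to 0.559, over 0.1 in 2 of 6 pairs, so the numbers were not taken to pair the hearts. The cause of these changes was not tested.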
